A study of Mus musculus with 6 samples.

Results

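*Gm15564*, *Lars2*, *CT010467.1*, *Gm42418*, *AY036118* and *Gm26917* are 6 of the 55341 genes counted in the aorta of miRNA-26b-/- and miRNA-26b+/+ mice, and they were taken from the count table by their symbols. They were chosen as genes thought to hold or resemble ribosomal RNA sequence, and by values described here. These values are the difference between the genotypes and the co-variation over the libraries. *Gm15564* was the 1 gene of 16017 tested with an adjusted p-value under 0.05 (0.00624% of the genes tested, edgeR's quasi-likelihood test). The others were seen to vary with it to differing degrees across the libraries, *Gm26917* the least (Pearson r 0.55). Their levels, differences and correlations are therefore a description and no test is drawn from them.

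RNA of the aortic arch and thoracic aorta was sequenced from 3 miRNA-26b-/- mice (libraries M2626, M2627 and M2628) and 3 miRNA-26b+/+ mice (M2629, M2630 and M2631), 1 library per mouse. All mice were 8 weeks old, fed a chow diet and of the labelled strain C57BL/6NCrl. The paper describes no treatment beyond the tamoxifen used to make the deletion. The mice were killed under xylazine and ketamine anaesthesia, and their vessels were perfused with phosphate buffered saline before removal. In miRNA-26b-/- mice both mature strands of miRNA-26b, whose hairpin lies in an intron of the phosphatase gene *Ctdsp1*, were removed by tamoxifen-induced CreERT2 recombination of a floxed allele made in embryonic stem cells. CreERT2, whose promoter is not given in the sources used here, was bred out again, so that the deleted allele itself was inherited. The embryonic stem cells came from another strain. The paper describes a mixed background for the strains first established and a C57BL/6 background for the mice used. How much sequence of the other strain the mice kept is not given there. The cells are labelled as endothelial, whereas the summed level of 10 smooth muscle markers was 35990 to 47170 CPM (counts scaled to a common library total) and that of 10 endothelial markers 487 to 1837 CPM. Fewer cells of a type and less RNA per cell cannot be told apart in such whole-vessel libraries.

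Ribosomal RNA is the most abundant RNA of a cell. RNA polymerase I transcribes it in the nucleolus as one long precursor, which is cut into the RNA of the small ribosomal subunit (18S) and those of the large subunit (5.8S and 28S). These RNAs carry no poly(A) tail, and library kits that select poly(A) RNA leave behind most of them. Pieces and copies of ribosomal RNA genes lie scattered over the genome, and reads of ribosomal RNA that pass the selection can align to genes annotated at such copies. *Lars2* encodes the mitochondrial leucyl-tRNA synthetase, which loads leucine onto its tRNA for translation in mitochondria.

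The genes fall into 3 loci of GRCm38. On chromosome 17, *CT010467.1* (ENSMUSG00000106106, annotated as rRNA) spans chr17:39846353-39848827 on the reverse strand. *Gm42418* (ENSMUSG00000098178, lincRNA) lies at chr17:39846958-39848788 on the forward strand, and *AY036118* (ENSMUSG00000105361, lincRNA) at chr17:39847113-39848035 on the reverse strand. *Gm26917* (ENSMUSG00000097971, lincRNA, forward strand) ends before them, at chr17:39843013-39846341. In RefSeq the same stretch is the 18S-related pseudogene *Rn18s-rs5*, 1849 bases long, at chr17:39846354-39848202 of the same build. All 923 bases of *AY036118*, 68.0% of those of *Gm42418* and 75.0% of those of *CT010467.1* lie inside this copy, and none of those of *Gm26917*. *Gm15564* (ENSMUSG00000086324, an antisense transcript of 821 exonic bases) lies on the reverse strand at chr16:35966752-35983230. *Lars2* (ENSMUSG00000035202, 11089 exonic bases) lies on the forward strand at chr9:123366927-123462666.

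The 3 nested genes of chromosome 17 are one piece of DNA counted up to 3 times. *CT010467.1* covers 99.5% of the exonic bases of *Gm42418* and every base of *AY036118*. The first 30 bases of *AY036118*, at chr17:39848006-39848035, are printed to show this, with the same 10 bases in capitals, which in *Gm42418* are read from the other strand:
AY036118: ATCAACGCAAgcttatggcccgcacttact
CT010467.1: ATCAACGCAAgcttatggcccgcacttact
Gm42418: agtaagtgcgggccataagcTTGCGTTGAT
Reads were counted without strand and for every gene they overlapped, so a read of this stretch added 1 count to each of the 3 genes, and sense and antisense RNA cannot be told apart.

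*Gm15564* and *Lars2* lie on different chromosomes and hold a common sequence. A run of 52 bases is identical on the transcribed strand of both. In *Gm15564* all but 1 of these bases lie in an exon of 71 bases, chr16:35981725-35981795, of a non-coding transcript, and in *Lars2* the run lies in the 3′ UTR, at chr9:123462048-123462099. Over the whole exon, 70 of 71 bases are identical in *Lars2* (98.6%). The end of the shared run and the 10 bases after it show the single difference, with the last 20 shared bases in capitals (*Gm15564* at chr16:35981735-35981764, reverse strand; *Lars2* at chr9:123462080-123462109, forward strand):
Gm15564: AATAGGGAACGTGAGCTGGGtttagaccgt
Lars2: AATAGGGAACGTGAGCTGGGattagaccgt
Counted from the first base printed, the difference from *Gm15564* to *Lars2* is T21A, and 9 of the last 10 bases are the same. No stretch of 25 bases was shared between either gene and any of the 4 genes of chromosome 17, where the longest identical run was 13 bases. The transcripts and tables used here hold the 18S-related copy and no 28S sequence, so whether the common stretch of *Gm15564* and *Lars2* is like another part of ribosomal RNA was not analysed here.

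The libraries held between 25706728 and 33345037 counts assigned to genes, without normalization, and CPM are these counts scaled to a library total of 1000000. The TMM factors ranged from 0.982 to 1.015, so that scaling hardly altered CPM. Reads with several reported alignments were not counted, so the values of repeated sequence cover uniquely aligned reads. The targeted *Mir26b* had no count in M2626 to M2628 and 0, 20 and 0 counts in M2629 to M2631, too few to check the genotypes. For its host gene *Ctdsp1* the knock-outs averaged 189 ± 9.75 CPM and the wild types 163 ± 12.8 CPM (SD over 3 mice). Each knock-out library was above every wild-type library (201, 184 and 184 against 151, 164 and 176 CPM), as for 6.13% of all genes tested. The log2 fold change of *Ctdsp1* was 0.20 with a standard error of 0.145 (adjusted p = 0.866, edgeR's quasi-likelihood test).

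All 6 genes passed the filter on low values, and 5 of them had higher CPM in each miRNA-26b-/- library than in any miRNA-26b+/+ library. Over all genes tested this held for 6.13%, the opposite for 5.52%, and either for 11.7%, and nothing is read from this because the genes were chosen by these values. At an unadjusted p-value under 0.05 the same 5 genes would be counted, all higher in miRNA-26b-/- mice, where 3.4% of all genes tested were higher, 3.07% lower and 6.47% either. The 5 genes are those of the nested stretch, *Lars2* and *Gm15564*; *Gm26917* overlapped between the groups.

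*Gm15564* stood at 192, 182 and 185 CPM in M2626, M2627 and M2628, and at 72.4, 86.2 and 66.3 CPM in M2629, M2630 and M2631. The miRNA-26b-/- libraries lay close together and far from the others, with the lowest of them over 2 times the highest miRNA-26b+/+ library. The means were 186 ± 4.93 and 74.9 ± 10.2 CPM (SD over 3 mice), and the log2 fold change was 1.30 with a standard error of 0.159 and a 95% interval from 0.96 to 1.64. Counting error alone would give a coefficient of variation of 1.42% in miRNA-26b-/- and 2.21% in miRNA-26b+/+ libraries, where 2.65% and 13.6% were seen.

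*Lars2* stood at 1103, 851 and 876 CPM in the miRNA-26b-/- libraries in the same order, and at 424, 584 and 432 CPM in the miRNA-26b+/+ libraries. M2626 was set apart from the other miRNA-26b-/- libraries, and M2630 from the other miRNA-26b+/+ libraries. The log2 fold change was 0.96 (standard error 0.159, 95% interval 0.62 to 1.30), from 480 ± 90.1 to 943 ± 139 CPM (SD, n = 3 each). Reads were counted over all exons together, so the table cannot show where in the transcript of this gene they fell.

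*CT010467.1*, the annotated ribosomal RNA gene, stood at 8407, 7244 and 6048 CPM in the miRNA-26b-/- libraries and at 4575, 5692 and 4780 CPM in the miRNA-26b+/+ libraries. By mean CPM it was the 8th gene of those tested. The groups were separated by a small gap, between M2628 and M2630, and the spread within each group was larger than this gap. The log2 fold change was 0.51 (standard error 0.143, 95% interval 0.21 to 0.82).

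*Gm42418* followed with 6242, 5406 and 4552 CPM against 3403, 4254 and 3521 CPM, and *AY036118* with 5452, 4724 and 4016 CPM against 2988, 3770 and 3151 CPM. Their log2 fold changes were 0.52 (standard error 0.142) and 0.50 (standard error 0.142). These 3 differences are one measurement and not 3, as the genes share their reads.

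*Gm26917*, the neighbour outside the 18S-related copy, stood at 72.4, 64.6 and 51.4 CPM in the miRNA-26b-/- libraries and at 53.8, 62.0 and 49.3 CPM in the miRNA-26b+/+ libraries. The groups overlapped, and the log2 fold change of 0.18 had a 95% interval from -0.24 to 0.60. Its 3329 exonic bases held 16.5 CPM per kilobase in miRNA-26b+/+ mice, where *CT010467.1* held 2034 CPM per kilobase.

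**Figure D1:**
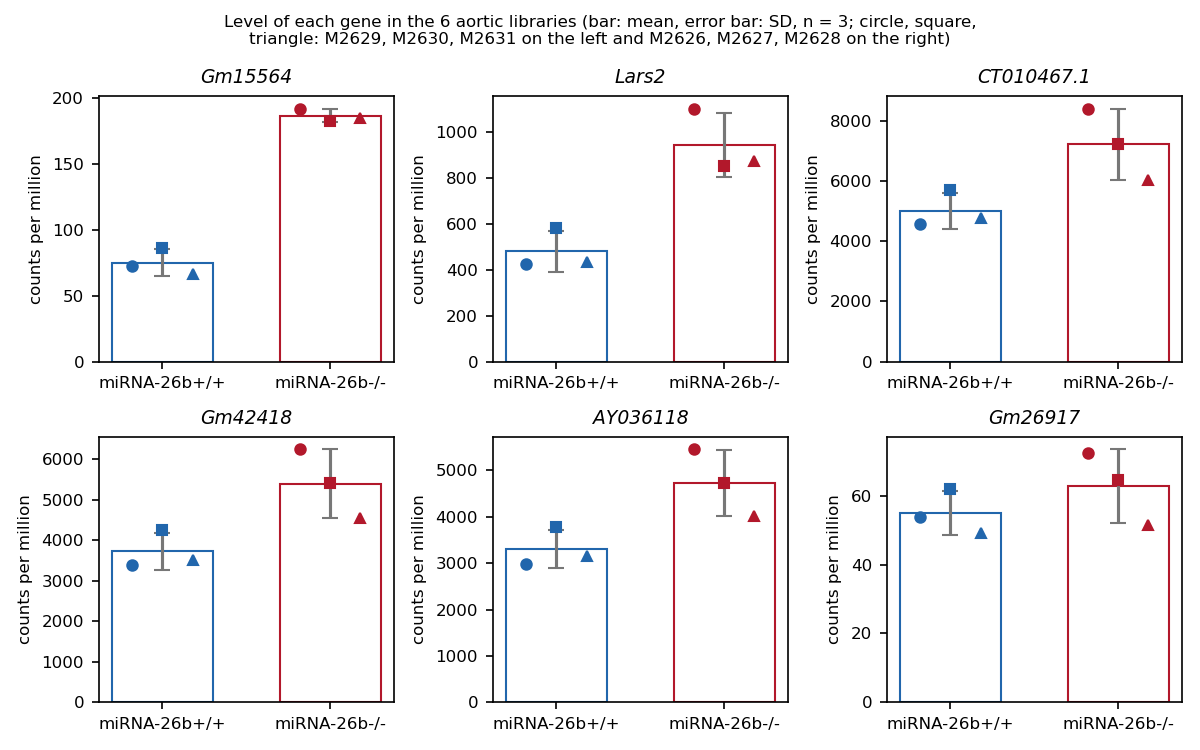
CPM (vertical axes, each from 0 on its own scale) of the 6 genes in each library, with the mean as a bar and the SD as an error bar (n = 3 mice per genotype). The miRNA-26b-/- points of *Gm15564* lie between 182 and 192 CPM, above all miRNA-26b+/+ points, and those of *Gm26917* overlap with the miRNA-26b+/+ points.

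Per kilobase of exon, the order of the mean levels in miRNA-26b+/+ mice was *AY036118* with 3578 ± 447, *Gm42418* with 2035 ± 252, *CT010467.1* with 2034 ± 241, *Gm15564* with 91.3 ± 12.4, *Lars2* with 43.3 ± 8.12 and *Gm26917* with 16.5 ± 1.93 CPM per kilobase (SD, n = 3). *Gm42418* and *CT010467.1* did not differ beyond their spread. In miRNA-26b-/- mice the order was the same, with 5125 ± 778 for *AY036118*, 227 ± 6.01 for *Gm15564*, 85.1 ± 12.5 for *Lars2* and 18.9 ± 3.19 for *Gm26917*.

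Subtracting the nested counts splits the stretch into 3 parts. *AY036118*, wholly inside the 18S-related copy, held 97.8 to 171 counts per base. The 908 bases of *Gm42418* beyond it held only 12.6 to 25.1 counts per base, and the 644 bases of *CT010467.1* beyond *Gm42418* held 55.0 to 95.1 counts per base. Of these parts, 923, 322 and 604 bases lie inside the 18S-related copy, so the part with the fewest reads is the one that lies mostly outside it. The order of the parts was the same in all 6 libraries. A read that touched the inner gene was left out of the outer part, which makes the density of the outer parts too low near each border. The part shared by all 3 genes was 1.43 times as high in miRNA-26b-/- as in miRNA-26b+/+ mice in mean CPM. The part of *Gm42418* beyond *AY036118* was 1.58 times as high (670 ± 127 against 423 ± 57.9 CPM), and the part of *CT010467.1* beyond *Gm42418* 1.42 times as high (1833 ± 335 against 1290 ± 136 CPM; SD, n = 3 each).

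**Figure D2:**
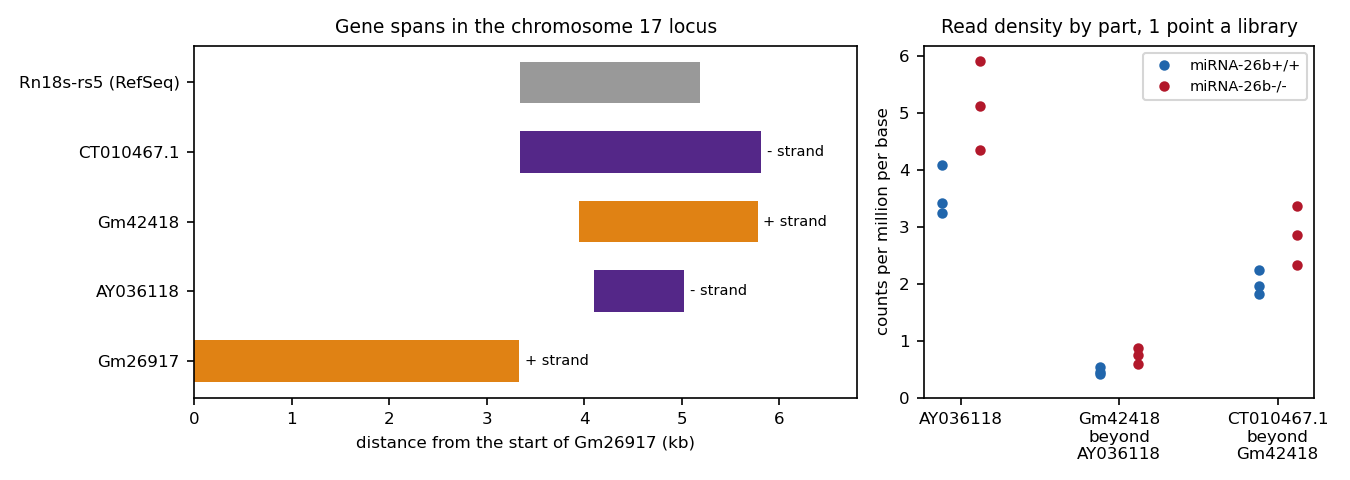
Left, spans of the 4 genes of chromosome 17 and of the RefSeq copy *Rn18s-rs5* by distance in kilobases from the start of *Gm26917*, coloured by strand. Right, CPM per base in the 3 nested parts, 1 point a library: the part of *Gm42418* beyond *AY036118* is the lowest part in all 6 libraries.

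The counts of the nested genes, which share reads, kept a fixed proportion. *Gm42418* had between 73.7% and 75.3% of the counts of *CT010467.1* in the 6 libraries, and *AY036118* between 64.9% and 66.4%, with coefficients of variation of 0.73% and 0.94%. The other genes did not keep their proportion, which restates their differing log2 fold changes and is no separate result. Relative to *CT010467.1*, *Lars2* had 13.1%, 11.7% and 14.5% in M2626, M2627 and M2628, against 9.26%, 10.3% and 9.05% in M2629, M2630 and M2631. *Gm15564* had 2.28%, 2.52% and 3.05% against 1.58%, 1.51% and 1.39%. In both cases the genotypes did not overlap, and M2628, the miRNA-26b-/- library with the lowest CPM of the 18S-related copy, had the highest ratio. *Gm26917* went the other way, with 0.85% to 0.89% of the counts of *CT010467.1* in miRNA-26b-/- and 1.03% to 1.18% in miRNA-26b+/+ libraries. *Gm15564* against *Lars2*, its relative in sequence, gave 17.4%, 21.4% and 21.1% in miRNA-26b-/- and 17.1%, 14.8% and 15.3% in miRNA-26b+/+ libraries, where M2626 lay close to M2629.

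**Figure D3:**
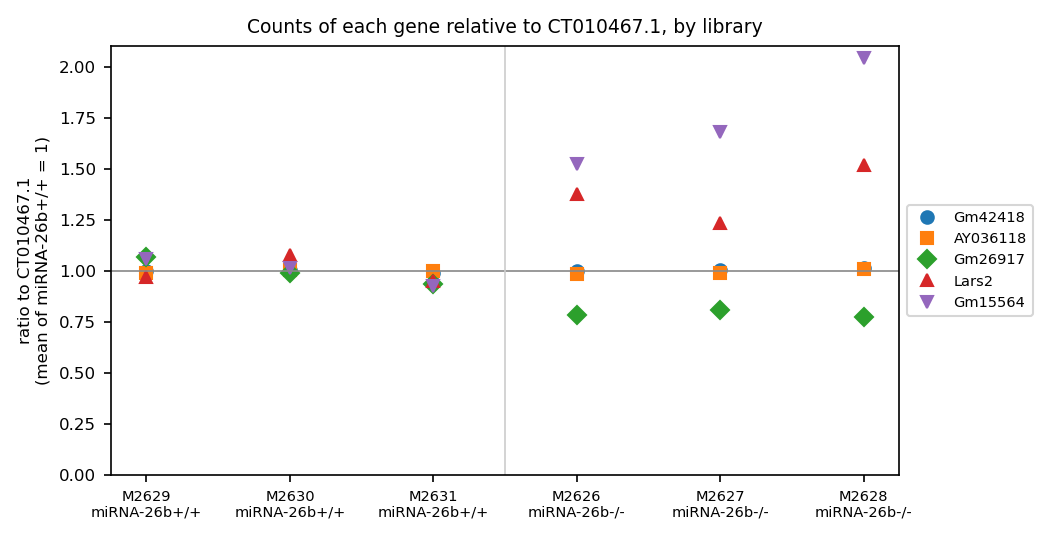
Counts of 5 genes relative to those of *CT010467.1* in each library, scaled so that the mean of the miRNA-26b+/+ libraries is 1 (vertical axis from 0). *Gm42418* and *AY036118*, which share reads with *CT010467.1*, stay near 1 in all 6 libraries. *Lars2* and *Gm15564* lie above 1 in the miRNA-26b-/- libraries, and *Gm26917* lies below 1 there.

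Across the 6 libraries the log2 CPM of *Gm15564* and *Lars2* gave a Pearson r of 0.97, and after the group means were taken away an r of 0.83. *Lars2* and *CT010467.1* gave 0.95 and 0.84, and *Gm15564* and *CT010467.1* 0.88 and 0.59. *Gm26917* and *CT010467.1* gave 0.84, and 0.94 within the groups, although the means of *Gm26917* hardly differed between genotypes. *Gm15564* and *Gm26917* gave 0.55 and 0.63. The nested genes gave at least 0.999 with each other because they share reads. These values describe 6 points that share their libraries and depth. M2626 was the highest library for each of the 6 genes, and M2629 the lowest for *Lars2* and the nested genes. M2627 and M2628 took different places: M2627 was above M2628 for the 4 genes of chromosome 17, and below it for *Gm15564* and *Lars2*.

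Counted as the table lists them, the 6 genes took 2.15%, 1.85% and 1.57% of everything counted in M2626, M2627 and M2628, against 1.15%, 1.44% and 1.20% in M2629, M2630 and M2631. The means were 1.86% ± 0.287 and 1.27% ± 0.157 (SD, n = 3 each), a difference of 0.590 percentage points. With the nested genes counted once, the shares were 0.843% ± 0.131 and 0.563% ± 0.0699, and the difference 0.280 percentage points. All 356 genes annotated as ribosomal RNA took 0.534% to 0.971% of the counts, 8 of them had any count, and *CT010467.1* held 80.2% to 89.4% of their counts. The ribosomal RNA genes other than *CT010467.1* and the mitochondrial *mt-Rnr1* and *mt-Rnr2* held 396 to 648 counts per library together.

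Other genes that hold pieces of these sequences were looked up by sequence and not by level. With at least 20 shared stretches of 25 bases there were 5 genes, all closest to *Lars2* (*AA474408*, *Gm36618*, *Gm47414*, *2410004P03Rik* and *Cd38*). For none of them was a gene of chromosome 17 the closest, and fewer stretches shared with chromosome 17 were not looked at. Stretches found in over 20 genes were left out. Of the 5 genes, 2 had enough reads to be tested and neither passed an unadjusted p of 0.05. *AA474408* had the most shared stretches, 44, and a log2 fold change of 0.89 with a standard error of 1.71, too uncertain to give a direction. *Cd38*, an enzyme that consumes NAD, had a log2 fold change of 0.76 (standard error 0.626). With at least 10 stretches, 9 genes were tested. *Trio*, a guanine nucleotide exchange factor with 12 stretches in common with *Gm15564*, had an unadjusted p under 0.05 and was lower in miRNA-26b-/- mice (log2 fold change -0.46, standard error 0.150; adjusted p = 0.736, edgeR's quasi-likelihood test). *Actr8*, *Mthfsd*, *Ankrd12*, *Ankrd44*, *Sod2* and *Fbxw2* had log2 fold changes between -0.09 and 0.30 and did not pass. No gene outside the 6 overlapped their exons, and the genes whose span crosses *Gm15564*, *Parp9* and *Kpna1*, had log2 fold changes of 0.01 (standard error 0.246) and -0.18 (standard error 0.184).

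The genes that make and process ribosomal RNA were counted next. Of 22 genes of the RNA polymerase I machinery, 0 passed an unadjusted p of 0.05 in either direction in edgeR's quasi-likelihood test, and 0 did so with DESeq2, limma voom or the likelihood ratio test; 1 passed without M2626, without M2627 or without M2628. The median log2 fold change of the list was -0.02, against 0.01 over all genes tested. Of 53 genes of pre-rRNA processing and ribosome assembly, 1 was higher and 1 lower, with a median of -0.06. The higher one was *Imp4*, a protein of the particle that processes the 18S precursor, with 38.2, 31.0 and 47.1 CPM against 24.6, 25.2 and 25.6 CPM (log2 fold change 0.60, standard error 0.238). The lower one was *Exosc10*, a nuclease of the nuclear exosome, with 40.4, 38.8 and 28.0 CPM against 56.0, 41.7 and 57.6 CPM (log2 fold change -0.55, standard error 0.223). Neither had an adjusted p under 0.05 (0.736 for both), and 2 of 53 genes is a share below the 6.47% of all genes. The count of 2 became 3 without M2626, 4 without M2628, 0 without M2629 and 1 without M2631.

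*Lars2* was compared with 21 other genes that take part in loading mitochondrial tRNAs, some of which are not synthetases or also serve the cytosol. None was higher at an unadjusted p under 0.05 and 1 was lower, *Ears2*, the glutamyl-tRNA synthetase, with 2.92, 4.35 and 7.42 CPM against 12.6, 12.6 and 8.63 CPM (log2 fold change -1.21, standard error 0.458; adjusted p = 0.736, edgeR's quasi-likelihood test). That is 1 of 21 genes, near the 6.47% of all genes tested, and it became 0 without M2630 and 2 without M2631 or with limma voom. The median of the list was 0.05. The summed level of the list was 433 to 454 CPM in miRNA-26b-/- and 427 to 478 CPM in miRNA-26b+/+ libraries, and the groups overlapped.

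Mitochondrial ribosomal RNA, which is encoded by mitochondrial DNA and does carry short poly(A) tails, did not separate the genotypes. *mt-Rnr1*, the small subunit RNA, stood at 368, 334 and 204 CPM against 294, 262 and 154 CPM (log2 fold change 0.34, standard error 0.233). *mt-Rnr2*, the large subunit RNA, stood at 910, 722 and 554 CPM against 822, 689 and 394 CPM (log2 fold change 0.19, standard error 0.223). Both overlapped between the groups, and in both M2631 was the lowest library.

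Lists of RNAs that mostly lack a poly(A) tail were also looked at. Reads with several alignments were not counted, so genes with near-identical copies can stay empty. Low or missing counts here therefore cannot show whether such RNA escaped the selection. Of 16 small nuclear, telomerase and Cajal body RNA genes in the table, 0 had a count in any library. Of 12 small RNA genes of RNA polymerase III, 3 were tested and 0 passed in either direction; *Rn7sk* had 6.73, 0.840 and 3.69 CPM against 2.15, 1.94 and 0.0649 CPM. Of 8 replication-dependent histone genes tested, 0 were higher and 2 were lower in miRNA-26b-/- mice at an unadjusted p under 0.05, where 3.4% of all genes tested were higher and 3.07% lower. The 2 became 1 with DESeq2, the likelihood ratio test, limma trend and the earlier quasi-likelihood method of edgeR. They also became 1 without M2626, M2627, M2629 or M2631, and 0 without M2630. *Hist1h1e* had no count in any miRNA-26b-/- library and 0.563, 2.62 and 1.65 CPM in the miRNA-26b+/+ libraries, and *Hist2h3c2* had 0.664 ± 0.180 against 2.63 ± 1.38 CPM (SD, n = 3 each). *Hist1h1c*, 1 of 2 histone genes with a positive log2 fold change, stood at 56.4, 56.5 and 51.8 CPM against 44.8, 43.3 and 36.3 CPM. The groups did not overlap for *Hist1h1c*, which did not pass an unadjusted p of 0.05. Of the annotated 5S and 5.8S ribosomal RNA genes 3 were tested, with 0 higher and 1 lower. The 5S gene *n-R5s202* was lower, with 0.545, 0 and 0 CPM against 4.40, 1.69 and 3.25 CPM; 5S genes have many near-identical copies, so its reads are uncertain. These 3 lower genes had under 5 CPM in every library. The 5.8S gene *n-R5-8s1*, whose RNA is cut from the same precursor as 18S, stood at 19.6, 12.6 and 19.3 CPM against 10.7, 10.95 and 11.5 CPM. Its groups did not overlap, and its log2 fold change of 0.60 (standard error 0.333) did not pass an unadjusted p of 0.05. No gene of these lists had an adjusted p under 0.05. Unadjusted, 6 genes of the 8 lists passed in all, 1 higher and 5 lower, where 6.47% of all genes tested passed. The lists held 22, 53, 21, 2, 3, 0, 8 and 3 tested genes. Without M2629 or without M2630 it was 3 genes, and without M2628 it was 10. Over all genes tested, 1036 passed in the main fit, 838 without M2629, 778 without M2630 and 1692 without M2628. The counts of the lists moved with these totals, and nothing particular to the lists is read from them.

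**Figure D4:**
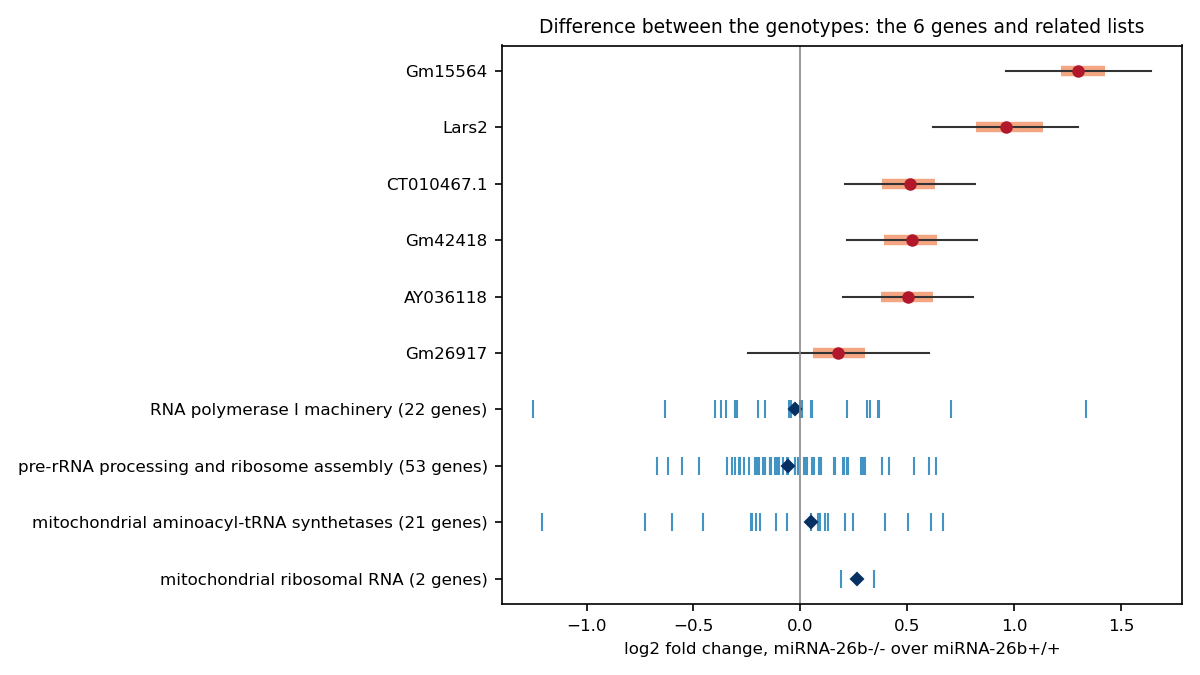
Log2 fold change of miRNA-26b-/- over miRNA-26b+/+ (horizontal axis) for the 6 genes, with the 95% interval as a thin line and the range over leaving out each library as a thick band, and for each tested gene of 4 related lists as a tick with the median as a diamond. *Gm15564* lies at 1.30, and the medians of the lists lie between -0.06 and 0.27.

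Markers of other cells were counted in the same fit, where 3.4% of all genes tested were higher and 3.07% lower at an unadjusted p under 0.05. No marker had an adjusted p under 0.05. Of 9 Schwann cell markers, 6 were higher in miRNA-26b-/- mice at an unadjusted p under 0.05 and 0 lower, and their summed level was 335 to 496 CPM against 231 to 288 CPM, without overlap. Of 9 skeletal muscle markers 8 were higher, with a summed level of 8.57 to 116 CPM against 4.38 to 14.0 CPM, which overlapped. Of 9 sympathetic neuron markers tested 4 were higher, with 22.5, 415 and 35.3 CPM against 30.7, 73.4 and 38.9 CPM, so that M2627 alone stood high, and the defining markers *Th* and *Dbh* were at 0 in 4 of the 6 libraries. Of 10 endothelial markers 1 was lower, *Tek*, and the summed level was 487 and 527 CPM in M2626 and M2627 against 1290 to 1837 CPM in the other libraries. The level of *Gm15564* was nearly the same in M2626, M2627 and M2628. These libraries held 487, 527 and 1837 CPM of endothelial markers and 43.9, 116 and 8.57 CPM of skeletal muscle markers. Of Schwann cell markers they held 490, 496 and 335 CPM, against 231, 247 and 288 CPM in M2629, M2630 and M2631. Of the smooth muscle, fibroblast, adipocyte, heart muscle, macrophage and red blood cell lists, 0 genes passed in either direction. The part of these cells in the levels of the 6 genes was not tested.

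The genes most like *Gm15564* by Pearson r of log2 CPM over the 6 libraries, of 9759 genes with a mean of at least 10 CPM, were *Ptch1* (0.99), *Rab34* (0.98), *Cnot7* (0.97), *Sec22a* (0.96) and *Lemd2* (0.96). *Ptch1*, the receptor of hedgehog ligands, stood at 53.1, 54.3 and 50.7 CPM against 31.7, 37.5 and 29.1 CPM. Those most like *Gm42418* were *Pold4* (0.996), *Gm16286* (0.991), *Sord* (0.990), *Ccdc24* (0.987) and *Mpv17l2* (0.980). *Pold4*, a subunit of DNA polymerase delta, stood at 35.0, 29.7 and 26.2 CPM against 21.2, 24.9 and 21.3 CPM. With only 6 points, 71 genes had an r over 0.9 with *Gm15564* and 92 with *Gm42418*.

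The differences of the 6 genes kept their sign when each library was left out. The log2 fold change ranged from 1.22 to 1.42 for *Gm15564*, from 0.82 to 1.14 for *Lars2*, from 0.38 to 0.63 for *CT010467.1* and from 0.06 to 0.30 for *Gm26917*. The values of *Lars2*, of the nested genes and of *Gm26917* were lowest without M2626. The highest values came without M2630 for *Gm15564* and *Lars2*, and without M2628 for *CT010467.1* and *Gm26917*; the value of *Gm26917* thus moved by over 1.5 times either way. The adjusted p of *Gm15564* (0.0122) was over 0.05 without M2626 (0.136), M2629 (0.181), M2630 (0.0571) or M2631 (0.164), and with the earlier quasi-likelihood method of edgeR (0.0860).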

How the data were processed

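RNA of 6 mouse aortas was sequenced from TruSeq libraries. Per the labels and the header of the count table, the reads had been mapped by the authors with STAR (genome GRCm38, mm10) and counted with featureCounts 1.6.4 over the exons of each gene name of GENCODE M21, unstranded, with a read over several genes counted for each and without multi-mapping reads. The deposited values are raw read counts. A second deposited table holds log2 CPM of 16340 genes, used in an alternative, and the authors' fold changes and p-values, which were not used.

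The 16017 genes that summed to 2 or more counts and exceeded 1 CPM in 2 or more libraries were scaled by TMM and tested with edgeR 4.0.16 (glmQLFTest, prior count 0.125) in R 4.3.3, with Benjamini-Hochberg adjustment, after a test on simulated data. Alternatives used other size factors, filters and prior counts, DESeq2 1.42.0, limma 3.58.1, the likelihood ratio test and leaving out each library; the earlier quasi-likelihood method was added after seeing the data. Positions and sequences came from GENCODE M21 and RefSeq (GRCm38). Shared sequence was counted as stretches of 25 bases, leaving out those found in over 20 genes.

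Named are the 6 genes, overlapping genes and tested genes with the most shared stretches (up to 10). Per list, up to 4 genes with the smallest unadjusted p under 0.05 are named. The 5 most like *Gm15564* and *Gm42418* (log2 of CPM plus 0.01), *Mir26b*, *Ctdsp1* and defining markers are named too. *mt-Rnr1*, *mt-Rnr2*, *Rn7sk*, *n-R5-8s1*, *Hist1h1c* and the untested genes with shared stretches were named after their values were seen. The members and lists were chosen with earlier results of these data known. Whether the mice of a group were litter mates is not given in the sources used here. With 3 mice per group an exact permutation test cannot go below p = 0.1, and none is given.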

Additional observations from a re-analysis of the deposited data

How the results depend on the processing

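The log2 fold changes of the 6 genes kept their direction under all 17 alternatives. The number of genes with an adjusted p under 0.05, 1 with edgeR's quasi-likelihood test, was 57 with DESeq2, 3 with limma voom, 19 with edgeR's likelihood ratio test and 0 with the earlier quasi-likelihood method, where 802 genes had an unadjusted p under 0.05; when each library was left out it ranged from 0 to 82, the highest without M2628. The number at an unadjusted p under 0.05, 1036, ranged from 686 without M2631 to 1692 without M2628 when each library was left out. The number of genes of the 8 process lists, 6, ranged from 3 to 10. The difference in the share of all counts, 0.590 percentage points, was 0.280 with overlapping genes counted once. The number of genes with shared sequence, 5 at a minimum of 20 stretches, was 19 at 10 and 0 at 50. Of the counts of single lists under the alternatives, 106 were within 1.5 times the main count and 22 were not. The list of small nuclear, telomerase and Cajal body RNA genes had 0 genes tested, so its count could not move. Other lists had small counts, where a change of 1 gene can leave this range. The tally is therefore no measure of how stable the lists are. The causes of these changes were not tested. No paired analysis was possible because the sample labels carry no replicate numbers, and the column names of the deposited log2 CPM table number the miRNA-26b+/+ libraries 1, 2 and 3 but give the number 2 to both M2627 and M2628, so that only the number 1 marks a single library in each group. Uniquely aligned reads limit what the counts say about repeated ribosomal RNA sequence.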
